A study of Rattus norvegicus with 12 samples.

Results

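Immediate early response genes were followed in the livers of obese ZSF1 rats, 6 females and 6 males. The group held Fos, Jun, Junb, Egr1, Atf3, Btg2, Ier2, Dusp1, Gadd45b and Myc, found by symbol in the deposited count tables. All 10 symbols were among the 16478 rows that name a gene. Both sexes were adult, 16 weeks old, untreated, housed alike with free chow and water, and of the obese phenotype. ZSF1 is a hybrid rat strain whose obese animals lack a working leptin receptor. No lean animals were analysed here, so what obesity does to these genes was not measured. The comparison asks how the hepatic level of each gene, and its spread from animal to animal, differed between the sexes. Each library came from 1 animal, per the labels.

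Immediate early genes are switched on by pre-existing factors, within minutes of a signal and without new protein synthesis. Growth factors and stress reach them through MAP kinases and serum response factor, which binds CArG boxes, and cAMP reaches them through CREB, which binds the cyclic AMP response element (CRE). Their products include transcription factors and proteins that end the signal. In liver they are known to respond to partial hepatectomy, feeding, hormones, inflammation and the handling of tissue.

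Of the 10 genes, 6 had a promoter window in the RefSeq table of build GRCr8, namely Junb, Egr1, Btg2, Ier2, Dusp1 and Gadd45b. Fos, Jun, Atf3 and Myc are named only. The 250 bases before the annotated start are printed for the 3 genes called different between the sexes (Egr1, Junb and Ier2) and for Dusp1, the gene with the largest spread for its level. Each is given 5′ to 3′ on the gene's own strand, with CArG box, CRE, AP-1, EGR and TATA matches in capitals. The counts were made on another build, so these coordinates belong to GRCr8 alone: Egr1 chr18:26736828-26737077, Junb chr19:40080876-40081125, Ier2 chr19:40399123-40399372 and Dusp1 chr10:17184603-17184852, all on the plus strand.
Egr1: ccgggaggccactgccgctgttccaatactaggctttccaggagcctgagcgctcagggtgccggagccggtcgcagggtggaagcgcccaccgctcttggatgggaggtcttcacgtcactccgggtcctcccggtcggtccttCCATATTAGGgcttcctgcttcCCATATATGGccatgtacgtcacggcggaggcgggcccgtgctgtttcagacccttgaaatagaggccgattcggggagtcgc
Junb: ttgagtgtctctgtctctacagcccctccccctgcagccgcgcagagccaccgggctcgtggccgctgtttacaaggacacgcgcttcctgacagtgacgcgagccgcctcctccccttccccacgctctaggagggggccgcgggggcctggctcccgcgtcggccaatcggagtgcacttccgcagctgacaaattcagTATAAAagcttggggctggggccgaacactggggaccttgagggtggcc
Ier2: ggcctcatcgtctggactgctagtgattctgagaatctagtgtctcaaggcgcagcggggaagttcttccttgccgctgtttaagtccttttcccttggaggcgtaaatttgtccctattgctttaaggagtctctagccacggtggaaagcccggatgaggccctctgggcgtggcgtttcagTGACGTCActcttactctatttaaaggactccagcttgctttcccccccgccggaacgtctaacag
Dusp1: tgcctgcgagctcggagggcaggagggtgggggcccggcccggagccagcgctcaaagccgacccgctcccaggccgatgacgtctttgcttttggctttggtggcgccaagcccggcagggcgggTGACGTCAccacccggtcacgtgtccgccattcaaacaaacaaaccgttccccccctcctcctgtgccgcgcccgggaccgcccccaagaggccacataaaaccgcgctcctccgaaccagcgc

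The Egr1 window held a pair of CArG boxes, at -105 to -96 and -83 to -74 from the start. It was the only window of the 6 with one, while 1.5% of 33469 RefSeq windows of the same length held one. The CRE letters TGACGTCA stood in 3 of the 6 windows, at -66 to -59 in Ier2, -124 to -117 in Dusp1 and -201 to -194 in Btg2, against 1.59% of all windows. Junb had TATAAA at -49 to -44, letters found in 12.9% of all windows. No window of the 6 held the AP-1 letters TGAGTCA or TGACTCA (4.05% of all windows) or the EGR letters GCGTGGGCG (0.478%). CCAAT stood in the windows of Junb, Egr1, Btg2 and Gadd45b, 4 of 6, and in 34.0% of all windows. Both strands were searched, no matches overlapped, and a match of letters is not a measured binding site.

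Female libraries held 6763879 to 24837602 gene counts and male libraries 11381428 to 29232871. A count of 3 therefore corresponded to between 0.103 and 0.444 CPM (counts per 1000000 gene counts) before scaling. All other CPM values are scaled by TMM factors. On principal components male 4 stood apart on the second component and female 12 on the third, so results that rest on them are also given without them. Hepatocyte markers summed to between 240000 and 319000 CPM in females and between 206000 and 264000 CPM in males. Of the 11 hepatocyte markers tested, 2 ran higher in females, 4 in males (1 to 2 and 2 to 5 without each animal in turn, past 1.5 times without any animal but female 9 and males 4, 5 and 6), and no hepatocyte marker was at 0 in all libraries. In bulk tissue, fewer cells of a type and less RNA per cell cannot be told apart. The labels give no batch, litter or time of collection. Animal numbers are 7 to 13 in females and 1 to 6 in males, so a batch that followed the numbers cannot be told apart from sex.

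Sex differences were tested with edgeR's quasi-likelihood test on the counts, and adjusted p-values are Benjamini-Hochberg values over the 9943 genes that passed a filter on low counts. Egr1 was higher in females, Junb and Ier2 were higher in males, and 6 tested members passed in neither direction. Those 3 calls among 9 tested members (Fos did not pass the filter) stand beside 43.2% of all tested genes called, 20.5% being higher in females and 22.7% higher in males. The share called among the members was thus not above the background. Of the 9 log2 fold changes (females over males), 2 were positive and 7 negative, with a median of -0.47 against -0.013 over all tested genes. The median size of the log2 fold change was 0.49 for the members and 0.24 for all tested genes. Of the 10 members, 1 (Ier2) had ranges that did not overlap between the sexes, as did 22.8% of the tested genes.

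**Figure D1:**
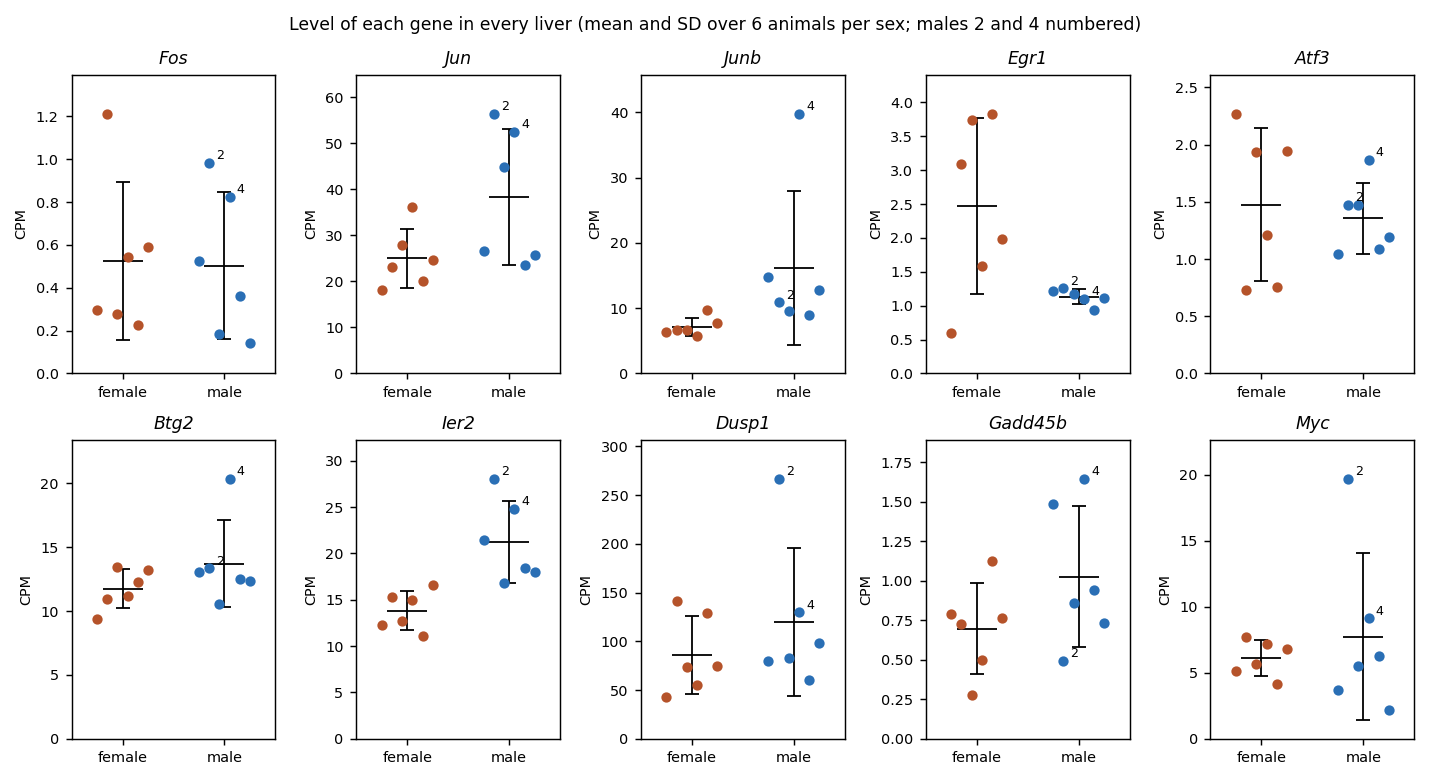
Level of each immediate early response gene in every liver, in CPM on axes that start at 0 and differ between panels, with females left and males right. Points are animals, the line and bars are the mean and SD of 6 animals, and males 2 and 4, marked by their numbers, hold the highest male value of all 10 genes.

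Egr1, a zinc finger transcription factor, was the member higher in females. Its lowest, median and highest levels were 0.593, 2.54 and 3.84 CPM in females and 0.941, 1.14 and 1.26 CPM in males. Counts behind these levels were 6 to 51 in females, with 13 to 32 in males. Of the 6 females, 5 lay at 1.59 CPM or more, above every male, and female 7, at 0.593 CPM from 6 counts, lay below every male. The means were 2.47 ± 1.30 CPM in females and 1.13 ± 0.112 CPM in males (SD, n = 6 each), a 2.13-fold difference with a log2 fold change of 1.09 (SE 0.322, edgeR adjusted p = 0.0135). The 95% interval of the log2 fold change was 0.40 to 1.78. The call held without each animal in turn (edgeR adjusted p at most 0.0348) and was lost with limma-voom (0.86, adjusted p = 0.0608).

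Jun and Junb encode the AP-1 subunits that pair with Fos, c-Jun being the stronger activator of the pair and JunB the weaker. Junb was 5.80, 6.63 and 9.70 CPM at its lowest, median and highest in females and 8.98, 11.8 and 39.8 CPM in males. Males 3 and 5 lay below the highest female, female 12, and the other 4 males above all females. Means were 7.16 ± 1.40 CPM in females and 16.1 ± 11.8 CPM in males (SD, n = 6 each), and the level was 2.26-fold higher in males (log2 fold change -1.18, SE 0.367, edgeR adjusted p = 0.0212). Male 4 alone stood at 39.8 CPM, and the other 5 males averaged 11.4 ± 2.42 CPM. Without male 4 the log2 fold change was -0.66 and the edgeR adjusted p was 0.00215, so the size depended on that animal and the call did not. The call held without each animal in turn, but narrowly without female 10 (edgeR adjusted p = 0.0491).

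Male 4 also had the highest sums of macrophage markers (539 CPM; 280 to 400 CPM in females and 194 to 539 CPM in males) and of neutrophil markers (30.5 CPM; 1.09 to 3.42 CPM in females and 2.77 to 30.5 CPM in males). Its lymphocyte marker sum was 76.3 CPM, with 22.4 to 29.0 CPM in females and 16.9 to 76.3 CPM in males. Of the markers tested, 2 of 13 for macrophages were higher in females and 1 in males, 1 of 1 for neutrophils was higher in males, and 0 of 6 for lymphocytes passed the test. Without male 4, 10 macrophage markers ran higher in females, 0 in males, and without any other animal 1 to 2 and 0 to 1. The neutrophil call, S100a9, was lost without female 8 or 13 and with DESeq2 or limma-voom, and its log2 fold change of -2.62 was -1.14 without male 4. Without male 3 or 6 the neutrophil calls were 2. A lymphocyte marker was called higher in females without male 4, and higher in males without male 1, 2, 3 or 6. Lyz2 was at 0 in all libraries, and no neutrophil or lymphocyte marker was. Summed acute phase genes were also highest in male 4, at 116000 CPM (42400 to 53200 CPM in females and 51200 to 116000 CPM in males). The part of these cells and of the acute phase in the Junb level of male 4 was not tested.

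Jun was 18.1, 23.9 and 36.2 CPM at its lowest, median and highest in females and 23.6, 35.8 and 56.5 CPM in males. Males split into 3 (numbers 2, 3 and 4) at 44.9 CPM or more, above every female, and 3 (numbers 1, 5 and 6) at 26.6 CPM or less, inside the female range. Means were 25.0 ± 6.46 CPM in females and 38.3 ± 14.7 CPM in males (SD, n = 6 each), with a log2 fold change of -0.61 (SE 0.253, 95% interval -1.16 to -0.058, edgeR adjusted p = 0.0705). The difference did not pass over all genes, though it did with DESeq2 (adjusted p = 0.0272) and with edgeR without female 10 (0.0358), male 5 (0.0368) or male 6 (0.0427). Without males 2 and 4 together the log2 fold change was -0.26 (edgeR adjusted p = 0.391).

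Fos, the AP-1 subunit that cannot pair with itself, was close to the floor in both sexes. Its lowest, median and highest levels were 0.226, 0.420 and 1.21 CPM in females and 0.140, 0.443 and 0.984 CPM in males. These levels came from 2 to 20 counts a library in females (55 in all) and 3 to 18 in males (51 in all). Means were 0.525 ± 0.369 CPM in females and 0.503 ± 0.343 CPM in males (SD, n = 6 each). The ratio of summed counts per total, females over males, was 1.21 with an exact 95% binomial interval of 0.814 to 1.81, which covers counting error only. A fit without the filter gave a log2 fold change of 0.18 (SE 0.486, edgeR adjusted p = 0.811). No difference was detectable at this depth.

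Ier2, a short nuclear protein of the early response, was the only member whose sexes did not overlap. It was 11.1, 13.9 and 16.5 CPM at its lowest, median and highest in females and 16.8, 19.9 and 28.0 CPM in males. Means were 13.8 ± 2.09 CPM in females and 21.3 ± 4.41 CPM in males (SD, n = 6 each). The level was 1.52-fold higher in males, with a log2 fold change of -0.61 (SE 0.135, 95% interval -0.90 to -0.32, edgeR adjusted p = 0.00232). The gap between the groups was small, as the highest female (number 13) and the lowest male (number 3) lay next to each other. The call held in every alternative run (adjusted p 0.000197 to 0.0109).

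**Figure D2:**
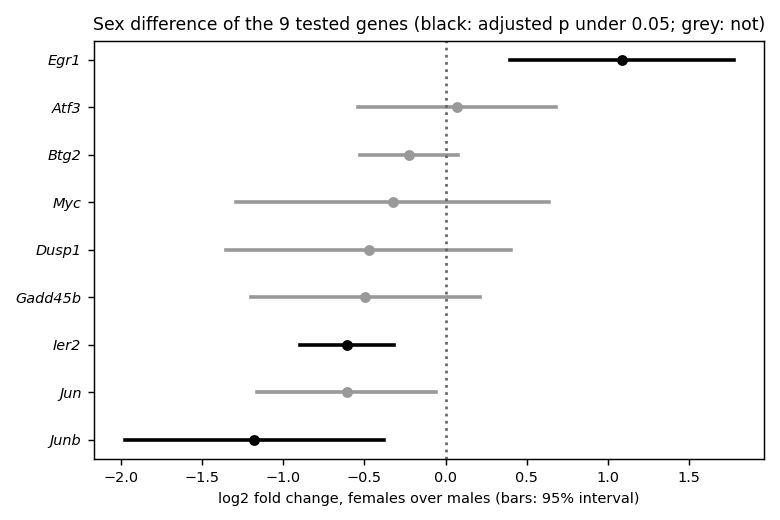
Log2 fold change, females over males, of the 9 immediate early response genes tested by edgeR, with 95% intervals as bars. Egr1 (1.09) lies right of 0 and Junb (-1.18) and Ier2 (-0.61) left of it in black, and the grey genes did not pass an adjusted p of 0.05.

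Atf3, a stress-induced bZIP repressor, and Myc, a growth-promoting transcription factor, did not pass the test. Atf3 was 0.728, 1.58 and 2.27 CPM at its lowest, median and highest in females and 1.05, 1.33 and 1.87 CPM in males. Females 7, 9 and 13 lay above every male, and females 8 and 12 below every male. The log2 fold change was 0.07 (SE 0.285, 95% interval -0.54 to 0.68, edgeR adjusted p = 0.87). Myc was 4.14, 6.25 and 7.70 CPM at its lowest, median and highest in females and 2.21, 5.89 and 19.7 CPM in males. Males 2 and 4 lay above every female, and males 1 and 6 below every female, so the female range lay inside the male one. Means of Myc were 6.11 ± 1.36 CPM in females and 7.74 ± 6.31 CPM in males (SD, n = 6 each), and its log2 fold change was -0.32 (SE 0.442, 95% interval -1.29 to 0.64, edgeR adjusted p = 0.588). That direction turned without male 2, to 0.22.

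Dusp1, Btg2 and Gadd45b encode regulators of signalling and growth, and did not pass the test either. Dusp1, a phosphatase that switches MAP kinases off, was 42.8, 74.1 and 142 CPM at its lowest, median and highest in females and 59.9, 90.7 and 267 CPM in males. Females 8 and 12 reached 142 and 129 CPM while the other 4 lay between 42.8 and 74.5 CPM. Male 2 stood at 267 CPM and male 4 at 130 CPM, and the other 4 males lay between 59.9 and 98.5 CPM. The sexes overlapped, and the log2 fold change was -0.47 (SE 0.40, 95% interval -1.35 to 0.40, edgeR adjusted p = 0.37), or -0.07 without male 2.

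Btg2, an antiproliferative protein, was 9.38, 11.7 and 13.4 CPM at its lowest, median and highest in females and 10.5, 12.8 and 20.4 CPM in males. Male 4 held the value of 20.4 CPM, and the other 5 males, 12.4 ± 1.11 CPM, lay within the female range. The log2 fold change was -0.22 (SE 0.141, 95% interval -0.53 to 0.08, edgeR adjusted p = 0.22), and -0.06 without male 4. Gadd45b, a stress sensor that acts on p38 and JNK signalling, was low, with 0.277, 0.745 and 1.13 CPM at its lowest, median and highest in females and 0.492, 0.901 and 1.65 CPM in males. Its counts ran from 2 to 18 a library in females and 9 to 30 in males. Males 1 and 4 lay above every female, and its log2 fold change was -0.49 (SE 0.33, 95% interval -1.20 to 0.21, edgeR adjusted p = 0.246).

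The immediate early response genes varied more between animals than most genes did. The standard deviation of log2 CPM within a sex had a median of 0.57 over the 9 tested members and 0.184 over all tested genes, and all 9 tested members lay above that gene-wide median. Low counts alone raise such a value, so edgeR's biological coefficient of variation (BCV), which sets counting error aside, was read beside its trend at the same mean level. Dusp1 had a BCV of 0.471, which was 3.67 times the trend and a larger ratio than 99.5% of tested genes. Myc had 0.505 (3.05 times the trend), Junb 0.408 (2.88 times) and Jun 0.299 (2.29 times). Egr1 followed with 0.334, at 1.43 times the trend, and Ier2, Btg2, Gadd45b and Atf3 lay between 1.12 and 1.20 times the trend. Even these last ratios were larger than those of 81.2% (Atf3) to 85.0% (Ier2) of tested genes. The median BCV over all tested genes was 0.12.

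**Figure D3:**
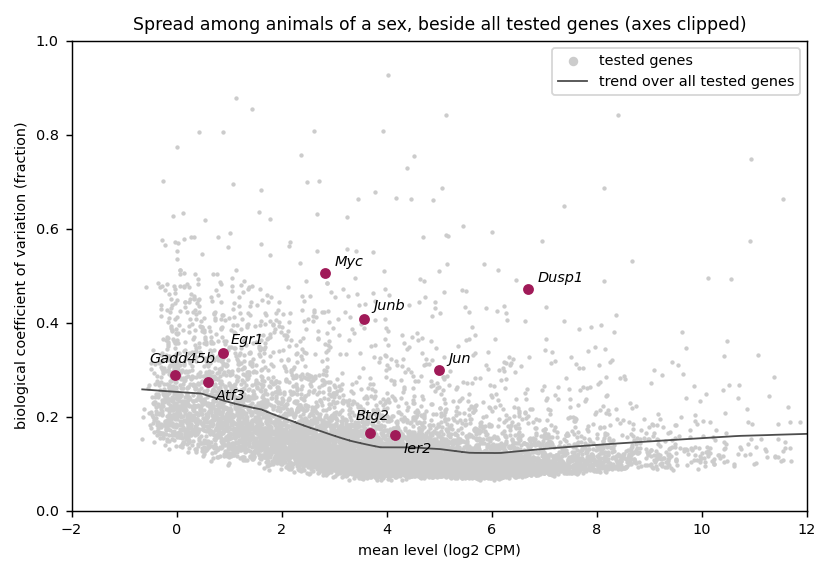
Biological coefficient of variation against mean level (log2 CPM) for all tested genes in grey, with the trend as a line and the 9 tested immediate early response genes marked. Dusp1, Myc, Junb and Jun lie at 2.29 to 3.67 times the trend, and Atf3, Gadd45b, Btg2 and Ier2 at 1.12 to 1.20 times it.

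The sexes differed in which members varied, but the differences in spread did not pass correction. Egr1 had a coefficient of variation of 52.4% in females and 9.88% in males. Male Egr1 counts varied less than counting error alone gives on average (chi-square per degree of freedom 0.164), while female counts varied more (8.67). Counting error alone would give a coefficient of variation of about 22.3% at the male counts. The contrast between the sexes thus includes a male spread below the counting level. An exact permutation test on deviations from the sex median of log2 CPM gave p = 0.00216 for Egr1, the smallest it can give, and 0.283 after adjustment over all tested genes. Without female 7 the difference in mean deviation, 0.61 log2 units with all animals, was 0.32, and the exact permutation p was 0.0455. Atf3 also had the larger deviations in females (exact permutation p = 0.0238, adjusted p = 0.808), with coefficients of variation of 45.2% in females and 22.9% in males. Jun had the larger deviations in males (exact permutation p = 0.0498, adjusted p = 0.984), with 25.8% in females and 38.5% in males. Both weakened when an animal was left out. The difference in mean deviation of Jun, -0.24 log2 units, was -0.13 without male 2, -0.15 without male 4 and -0.16 without male 5, and its exact permutation p was 0.31 to 0.53 without any 1 male. Male Jun levels lay in a high and a low cluster of equal size, so leaving out any male moves the median into a cluster. For Jun these runs therefore do not single out an animal. That of Atf3, 0.32 log2 units, was 0.18 without female 8 (exact permutation p = 0.535) and 0.18 without female 12 (exact permutation p = 0.522).

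Junb and Myc had coefficients of variation of 19.5% and 22.2% in females and of 73.2% and 81.5% in males, yet the exact permutation test gave p = 0.227 for Junb and p = 0.128 for Myc. For Junb, 1 animal held most of the male spread, as the difference in mean deviation, -0.33 log2 units, was -0.06 without male 4. For Myc it was -0.49, and -0.28 without male 2 (exact permutation p = 0.234). Mean deviations were larger in males for 7 tested members and in females for 2. Unadjusted, 3 of the 9 tested members had a spread difference with p under 0.05, as did 5.06% of all tested genes by the same exact permutation test (503 of 9943). After adjustment 0 of 9 members and 0.0% of all tested genes passed. The exact permutation test cannot give a p below 0.00216, so over 9943 genes a single gene could not pass on its own. The adjusted result therefore does not show that the spreads were alike. The chi-square per degree of freedom was above 1, the value that counting error gives on average, in both sexes for 9 of the 10 members, Egr1 being the exception. It was only slightly above for Gadd45b in females (1.37) and Atf3 in males (1.18), which counting error alone could give.

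High values gathered in 2 males. Male 2 had the highest male level of Fos, Jun, Egr1, Ier2, Dusp1 and Myc, and male 4 that of Junb, Atf3, Btg2 and Gadd45b, which makes 10 of 10 between them. For Egr1 the lead was slight, with 1.26 CPM in male 2, 1.22 CPM in male 1 and 1.10 CPM in male 4. How often these males were highest over all tested genes was not counted, so the tally cannot be called particular to the members. Male 4 also stood apart over all genes on the second principal component. Male 2 was first or second among males for 8 members and male 4 for 9. Against the median of the other 5 males, male 2 had 3.60 times the Myc level, 3.22 times the Dusp1 level, 2.72 times the Fos level and 2.12 times the Jun level. Its Gadd45b was the lowest of the males, at 0.523 times that median. Male 4 had 3.66 times the Junb level, 2.27 times the Fos level, 1.97 times the Jun level, 1.91 times the Gadd45b level and 1.67 times the Myc level. Both were thus high for Fos, Jun and Myc, while Junb was high in male 4 alone. Males 3, 5 and 6 were never first or second for any member.

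Among females no animal led in this way. Females 8 and 12 were each highest for 3 members (Fos, Dusp1 and Myc in female 8, Junb, Egr1 and Gadd45b in female 12), and females 7, 9, 10 and 13 for 1 each. Female 13 was first or second for 5 members, the most of any female, and lowest for 0. Females 8 and 12 were first or second for 4 members each, and female 12 was also lowest for 3. Female 7 was lowest for 4 members (Jun, Egr1, Btg2 and Dusp1) and highest for Atf3. Females 8 and 12, the 2 with the lowest Atf3, held the 2 highest Dusp1 levels.

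Male 2 differed from male 4 in cell markers. Its red cell marker sum was 1390 CPM, the highest of all (330 to 782 CPM in females and 571 to 1390 CPM in males), and its macrophage sum of 194 CPM was the lowest. Male 4, at 887 CPM of red cell markers, also lay above every female. Of 5 red cell markers tested 0 ran higher in females, 3 in males, and without male 2 these counts were 1 and 1. They ran over 0 to 1 and 0 to 4 without each animal in turn, moving past 1.5 times without males 2 and 4 and females 7, 8, 9, 12 and 13. No red cell marker was at 0 in all libraries. Glucocorticoid responsive genes summed to 4110 CPM in male 2 (1160 to 3110 CPM in females and 2690 to 4130 CPM in males), which was not the highest male sum. Most of it was Pck1 (2900 CPM) and Tat (900 CPM), so the sum says little about the other genes of the list. Male 2 held the highest male level of Pck1, Fkbp5 (23.0 CPM), Per1 (16.3 CPM), Tsc22d3 (36.7 CPM) and Klf9 (29.0 CPM). It held the lowest male level of Igfbp1 (13.6 CPM), Lcn2 (1.59 CPM) and Ddit4 (3.01 CPM), and neither end for the rest. The part of blood and of glucocorticoid signalling in the levels of male 2 was not tested.

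**Figure D4:**
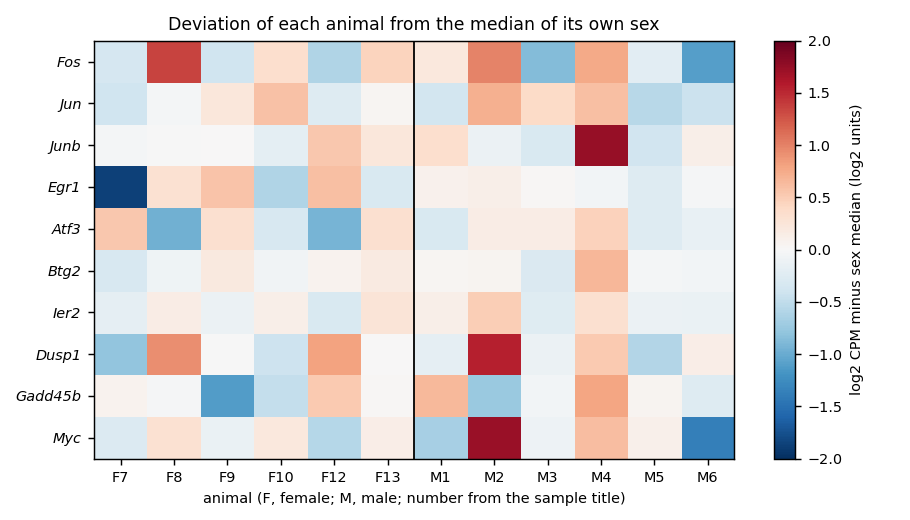
Each animal's log2 CPM minus the median of its own sex for the 10 immediate early response genes, with females (F) left and males (M) right of the line. Males 2 and 4 are red for Fos, Jun, Ier2, Dusp1 and Myc, the darkest male cells being Dusp1 and Myc in male 2 and Junb in male 4, and female 7 is darkest blue for Egr1.

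Whether members varied together was asked by setting each against Fos within a sex, over 6 animals, by Pearson's r and Spearman's rho of log2 CPM with exact permutation p-values over 720 orders. In females Myc gave r = 0.88 (exact p = 0.0222) and rho = 0.89 (exact p = 0.0333), and Ier2 gave r = 0.81 (exact p = 0.0375) and rho = 0.89 (exact p = 0.0333). In males Ier2 gave r = 0.94 (exact p = 0.0083) and rho = 0.94 (exact p = 0.0167), and Myc gave r = 0.80 (exact p = 0.0528) and rho = 0.83 (exact p = 0.0583). Over the 18 relations 0 passed adjustment, the smallest adjusted p being 0.15 for r and 0.15 for rho by these exact permutation tests. The relation with Ier2 was thus positive in each sex, without passing the correction.

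Without the 2 animals whose Fos lay farthest from the median, r with Ier2 was 0.96 in females and 0.98 in males, and r with Myc was 0.92 in females and 0.36 in males. The male r with Myc was thus lower without those animals. Leaving them out also narrows the range of Fos and leaves few points, so the reason for the drop cannot be told. Other male values moved as far, r with Gadd45b being 0.14 with all 6 males and 0.93 without those 2, with Junb 0.47 and 0.87, and with Egr1 0.27 and 0.0017. Over all 9 partners r was positive for 6 in females (range -0.38 to 0.88, median 0.08) and for 9 in males (range 0.14 to 0.94, median 0.56). Fos counts were at most 20 a library, so counting error enters every one of these relations, and values within a library share its scaling. Egr1 did not follow Fos in females (r = 0.08, exact permutation p = 0.856).

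**Figure D5:**
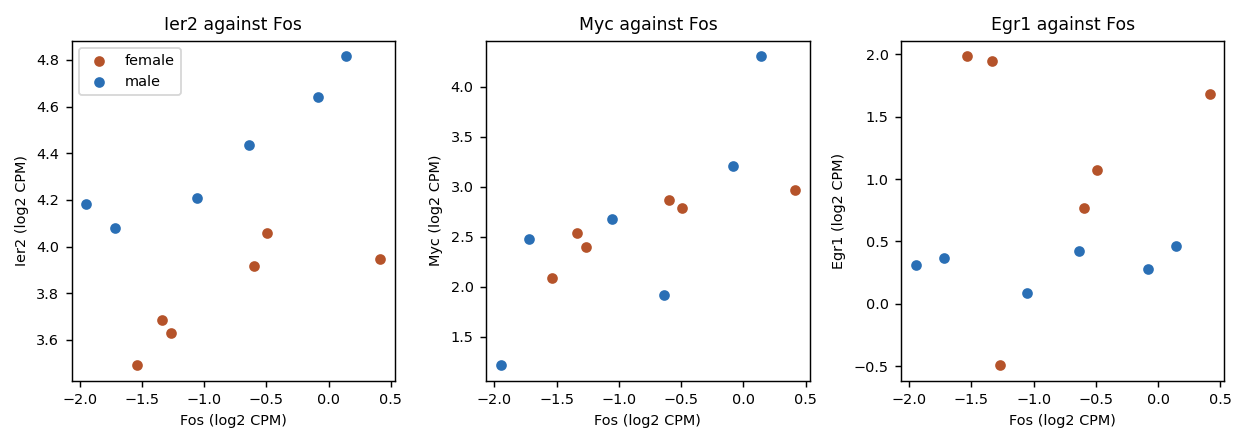
Levels of Ier2, Myc and Egr1 against Fos in each animal (log2 CPM on both axes), females in orange and males in blue, 6 points each. Ier2 climbs with Fos within each sex (r = 0.81 in females and 0.94 in males), with the males above the females throughout, while Egr1 does not follow Fos in females (r = 0.08).

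The genes whose deviations from the sex median were most like the mean deviation of the tested members were sought among 9525 non-member genes over the 12 animals. They were Rpl28 (r = 0.98, rho = 0.97) and Rplp0 (r = 0.92, rho = 0.83), both genes of ribosomal proteins, RGD1303142 (r = 0.90, rho = 0.82), Lst1 (r = 0.90, rho = 0.73) and Ifitm3 (r = 0.89, rho = 0.80). These are the closest of many genes and a description only. All points share their library's depth and scaling. Rpl28 was highest of all animals in male 4, at 70.0 CPM (43.7 to 50.0 CPM in females and 53.3 to 70.0 CPM in males).

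Partners and targets of these genes were read from lists of other early response and signalling genes, each beside the background of 43.2% called. Of 12 AP-1 and related bZIP partners tested, 5 ran higher in females, 2 in males. Jdp2, a bZIP repressor that pairs with Jun, averaged 1.98 ± 0.587 CPM in females and 0.672 ± 0.386 CPM in males (SD, n = 6 each; log2 fold change 1.59, edgeR adjusted p = 0.00138). Maf, another bZIP factor, was also higher in females (log2 fold change 1.45, edgeR adjusted p = 0.000437). Crem, a modulator of transcription at the CRE, averaged 56.6 ± 8.65 CPM in females and 138 ± 21.4 CPM in males (SD, n = 6 each; -1.29, edgeR adjusted p = 9.62e-07), with no overlap between the sexes. These differences were in both directions.

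Of 20 other EGR, NR4A, KLF and related early transcription factors tested, 7 ran higher in females, 6 in males. The orphan receptor genes Nr4a1 and Nr4a2 went opposite ways, Nr4a1 higher in males (log2 fold change -1.31, edgeR adjusted p = 0.00482) and Nr4a2 higher in females (0.74, edgeR adjusted p = 0.00615). Id1, an inhibitor of helix-loop-helix factors, was higher in females (1.02, edgeR adjusted p = 0.0163). Of 27 early feedback and effector genes tested, 2 ran higher in females, 5 in males, and without male 6 these counts were 4 and 5. Gdf15, a stress cytokine gene, was higher in females (1.35, edgeR adjusted p = 0.0141). Dusp10, a MAP kinase phosphatase like Dusp1 (-0.92, edgeR adjusted p = 0.0108), and the pseudokinase Trib1 (-0.73, edgeR adjusted p = 0.00463) were higher in males.

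Upstream of the members, 4 of 25 MAP kinase cascade and SRF cofactor genes ran higher in females, 6 in males, and without female 8 or male 1 these counts were 2 and 6. Map2k6, a kinase that activates p38, was higher in males (log2 fold change -1.43, edgeR adjusted p = 0.00182), as was the small GTPase gene Hras (-0.44, edgeR adjusted p = 6.5e-05). Rps6ka3, a kinase downstream of ERK, was higher in females (0.71, edgeR adjusted p = 0.003). Srf itself spanned 17.4 to 25.3 CPM in females and 17.4 to 19.9 CPM in males (0.21, edgeR adjusted p = 0.0797).

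Relatives of Btg2 and Gadd45b stood among 15 growth arrest and DNA damage genes tested, of which 3 ran higher in females, 4 in males. Btg3 was higher in females (log2 fold change 1.45, edgeR adjusted p = 1.03e-05), as was the stress-induced Sesn3 (0.76, edgeR adjusted p = 0.0012). Gadd45g, the paralog of Gadd45b, averaged 9.55 ± 4.52 CPM in females and 35.6 ± 37.6 CPM in males (SD, n = 6 each; -1.85, edgeR adjusted p = 0.0485). Males 2 and 4 held 99.5 and 63.5 CPM of it, and the call was lost without male 2 (when the log2 fold change was -1.21), male 4 or any 1 female, and with upper-quartile factors, library totals, limma-voom or no filter on low counts. Of 14 genes of the ATF4 and integrated stress response, the pathway that also induces Atf3, 3 ran higher in females, 4 in males. Trib3 (-1.51, edgeR adjusted p = 0.000354) and the translation repressor Eif4ebp1 (-0.69, edgeR adjusted p = 8.71e-05) were higher in males, and the kinase gene Eif2ak3 was higher in females (0.62, edgeR adjusted p = 0.0053).

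Of 17 genes of the MYC network, 3 ran higher in females, 1 in males. These counts were 2 and 2 without female 7, 3 and 4 without female 12, 3 and 2 without female 13, and 5 and 1 without male 6. The cyclin gene Ccnd2 was higher in females (log2 fold change 1.24, edgeR adjusted p = 0.000161), and Mxi1, a Myc antagonist that binds Max, was higher in males (-0.35, edgeR adjusted p = 0.00218). Max, the partner of Myc, averaged 7.11 ± 0.788 CPM in females and 6.23 ± 0.813 CPM in males (SD, n = 6 each; 0.18, edgeR adjusted p = 0.197).

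Heat shock, glucocorticoid, clock and acute phase genes were read beside the members. Of 13 heat shock genes tested, 0 ran higher in females, 2 in males, Hspb1 (log2 fold change -0.65, edgeR adjusted p = 0.0186) and Hspe1 (-0.17, edgeR adjusted p = 0.0191, lost without female 13). Without female 13 the counts were 1 and 1, and without male 4 or male 6 they were 1 and 2. Their sum was highest in female 12, at 2600 CPM (1620 to 2600 CPM in females and 1390 to 1860 CPM in males), and lowest in male 4, at 1390 CPM. Hspa1a was at 0 in all libraries. Of 14 glucocorticoid responsive genes, 0 ran higher in females, 4 in males, 1 and 3 without female 7, male 1 or male 2, and 1 and 4 without male 3. Fkbp5, a chaperone of the glucocorticoid receptor, averaged 11.4 ± 1.75 CPM in females and 19.1 ± 2.66 CPM in males (SD, n = 6 each; -0.76, edgeR adjusted p = 0.000112).

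Of 14 clock genes 5 ran higher in females, 4 in males, and those counts stayed at 5 and 4 without each animal in turn. Dbp averaged 7.07 ± 4.69 CPM in females and 56.1 ± 29.9 CPM in males (SD, n = 6 each; log2 fold change -3.04, edgeR adjusted p = 0.00029). Nr1d1, a repressor in the clock, was also higher in males (-1.59, edgeR adjusted p = 0.00497), and Npas2, an activator in it, higher in females (1.41, edgeR adjusted p = 0.00346). Of 21 acute phase genes 2 ran higher in females, 7 in males, and these counts ran over 0 to 2 and 4 to 7 without each animal in turn, moving past 1.5 times without any animal but female 9 and male 4. Serpina3n, a protease inhibitor, was higher in males (-1.10, edgeR adjusted p = 0.000247). The part of collection time, hormones and inflammation in the sex differences of Egr1, Junb and Ier2 was not tested.

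Other cell types were read by their markers. Of 5 sinusoidal endothelial markers tested, 4 ran higher in females, 0 in males (sums 82.2 to 103 CPM in females and 29.2 to 81.6 CPM in males). Of 11 stellate cell markers 3 ran higher in females, 1 in males, and without male 4 these counts were 5 and 0, and 2 to 3 and 0 to 1 without any other animal (sums 354 to 461 CPM in females and 305 to 458 CPM in males). Bile duct markers gave 0 of 3 in either direction (6.39 to 11.1 CPM in females and 6.23 to 15.1 CPM in males). Pancreas markers gave 1 of 3 in each direction (6.91 to 39.6 CPM in females and 11.5 to 14.2 CPM in males), with Prss1, Prss2 and Ins1 at 0 throughout. No endothelial, stellate or bile duct marker was at 0 in all libraries. The part of cell composition in the sex differences of Egr1, Junb and Ier2 was not tested.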

How the data were processed

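Total liver RNA of 12 rats was sequenced from TruSeq libraries, 1 per animal, per the labels' protocols. The deposited values are raw read counts per gene symbol with no normalization. Bowtie2 2.0.2, DESeq and build rn4 are named in the submitters' processing notes. The counting program, its strand setting and its annotation are not given in the sources used here. Overlapping and antisense genes may therefore share reads. The 5 rows that name no gene (27.1% to 31.7% of counts in a library) were left out of totals and tests.

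Counts were tested in edgeR 4.0.16 (R 4.3.3) with filterByExpr (minimum count 10, minimum total 15), TMM factors and robust quasi-likelihood F tests, females over males. SEs were taken as the absolute log2 fold change over the root of F. Spread was tested by exact permutation of absolute deviations from the sex median of log2 CPM (prior count 2). Alternatives used RLE, upper-quartile or no scaling factors, DESeq2 1.42.0, limma-voom (limma 3.58.1), other filters and left-out animals. The edgeR test of sex was tried on simulated counts with the same dispersion for every gene and no outlying animal. The other steps were not tried on simulated data.

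Named genes are the 10 members, up to 3 called members of each of 20 lists with the largest fold change (an abundant uncalled one where few passed), and the 5 genes nearest in pattern. Those described, and Srf and Max beside them, were chosen after their values were seen. Members and lists were chosen with earlier results of these data known.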

Additional observations from a re-analysis of the deposited data

Results flagged for a closer look

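In 4 of the 20 groups of 6 animals examined (10 genes in each sex), the highest animal lay far from the rest in CPM, by Dixon's criterion for the gap beside it. For normally distributed values chance alone flags about 1 group in 20. The criterion was applied to CPM without logs, and all 4 flags were at the high end. The groups also share the same animals, so the number of flags cannot be read as an excess over that rate. Fos reached 1.21 CPM in female 8, from 20 counts, while the other 5 females lay between 0.226 and 0.592 CPM. Junb reached 39.8 CPM and Btg2 20.4 CPM in male 4, while the other 5 males lay between 8.98 and 14.9 CPM for Junb and at 12.4 ± 1.11 CPM (SD) for Btg2. Dusp1 reached 267 CPM in male 2, while the other 5 males lay between 59.9 and 130 CPM.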

How the results depend on the processing

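Over all alternatives 3855 to 4634 genes were called and 2 to 4 immediate early response genes, with Junb and Ier2 called in each. Egr1 was lost with limma-voom, which left 0 members higher in females. The sex with more calls turned with upper-quartile factors (2250 higher in females, 2030 in males), library totals (2082 and 1987), without male 4 (2389 and 2238) and without male 4 and female 12 together (2403 and 2231), against 2037 and 2261. Directions turned only for members that did not pass. The log2 fold change of Atf3 was -0.036 with limma-voom and ran from -0.076 to 0.22 without each animal. That of Myc was 0.11 with limma-voom, ran from -0.54 to 0.22 without each animal, and was 0.54 without males 2 and 4 together, an alternative chosen after seeing the data that also took Dusp1 to 0.10. The difference in mean deviation (females minus males, log2 units) ran without each animal from -0.20 to 0.036 for Gadd45b, from -0.12 to 0.21 for Dusp1, from -0.098 to 0.023 for Ier2 and from -0.081 to 0.067 for Btg2, and without male 4 and female 12 together it was 0.00015 for Gadd45b and 0.071 for Btg2. The r of Fos with Gadd45b in females was -0.012 with library totals, and r with Junb was 0.21 and with Btg2 0.26 in females without the 2 animals farthest from the median of Fos. The causes were not tested. Gadd45b had no value under a filter at a mean of 1 CPM. No paired analysis was possible because the sexes share no replicate numbers. Depth limits Fos, Gadd45b, Atf3 and Egr1, which had as few as 2, 2, 10 and 6 counts in a library.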
